A study of Homo sapiens with 2 samples.

Results

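The genes described here are 39 genes of the Fanconi anaemia and homologous recombination pathways, taken by name from a deposited table of read counts for 63677 genes. All 39 were found in the table by Ensembl identifier and current symbol, and all 39 reached a mean of 1 CPM (reads scaled to a library of fixed size), as did 15440 genes in all. The RNA came from HGC-27 cells, a human gastric adenocarcinoma line grown in RPMI-1640 medium, 48 hours after transfection with the reagent INTERFERin. The lncPSCA group received the expression plasmid pcDNA3.1 carrying the long non-coding RNA lncPSCA, and the control group received the pcDNA3.1 vector alone. Each group was 1 library, so every difference below is a difference between 2 libraries of 1 cell line and has no replicate check.

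Homologous recombination repairs a broken chromosome by copying the intact sister DNA. Broken ends are first sensed and trimmed to single strands, BRCA1 and its partners then bring BRCA2, and the trimmed strand then pairs with the matching sequence. The Fanconi anaemia pathway handles covalent links between the strands of DNA: a core complex attaches ubiquitin to the FANCD2-FANCI pair, nucleases unhook the link, and recombination completes the repair. Inherited loss of some of these genes causes Fanconi anaemia or a raised risk of breast, ovarian and other cancers. Many of the genes described here are transcribed mainly in dividing cells.

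The lncPSCA library held 23016646 counts and the control library 21552098 counts. PSCA, which served as a check of the transfection because no row is named for lncPSCA itself, had 28699 reads in the lncPSCA library and 22 in the control library; how the lncPSCA sequence relates to this row was not tested. Of the markers of the labelled cell type, the gastric mucosa genes GKN1, CLDN18, TFF1 and TFF2 had no reads in either library, and MUC5AC had 3 in the lncPSCA library and 4 in the control library. The epithelial genes EPCAM, KRT18 and KRT19 stayed below the minimum of 1 CPM; KRT8, at 2.47 CPM in the lncPSCA library and 3.13 CPM in the control library, and CDH1, at 0.851 CPM in the lncPSCA library and 1.23 CPM in the control library, reached it on average. The mesenchymal gene VIM had 2594 CPM in the lncPSCA library and 2601 CPM in the control library. The fibroblast collagen genes were also present, COL1A1 at 1042 CPM in the lncPSCA library and 1112 CPM in the control library, and COL1A2 at 16.8 CPM in the lncPSCA library and 12.3 CPM in the control library; their part in the results below was not tested. The blood and endothelial markers PTPRC, PECAM1 and CDH5 were below the minimum as well. Fewer cells of a kind, such as cells in S phase, and less RNA per cell cannot be told apart in such bulk libraries.

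As a group the 39 genes were somewhat more abundant in the lncPSCA library. The largest ratios, each at least 1.5-fold, were those of BRCA2, BRCA1, ATM, BARD1, RAD50, BRIP1, ATR, POLQ, BLM, RBBP8 and NBN. Levels ran from 4.13 CPM to 132 CPM in the lncPSCA library and from 5.21 CPM to 113 CPM in the control library, on 97 to 3104 reads and 110 to 2391 reads. The summed level was 1628 CPM in the lncPSCA library and 1323 CPM in the control library. On the log2 scale the ratio was above 0 for 32 of the 39 genes, or 82.1%, against 48.1% of all measured genes. The scalings tried gave between 32 and 35. The median log2 ratio of lncPSCA over control was 0.32, a 1.25-fold difference, against a median of -0.02 over all measured genes.

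Each fold below is the ratio of the CPM values, with an exact 95% counting interval for the counting of reads alone, since the spread between cultures was not measured. That interval lay wholly above 1 for 26 members, wholly below 1 for 4 and included 1 for 9. Over all measured genes, 27.0% had an interval wholly above 1 and 32.1% had one wholly below 1. Counting 1.5-fold differences whose interval leaves out 1, 11 members were higher in the lncPSCA library and 0 were lower, which is 28.2% of the members against 10.5% of all measured genes higher and 5.41% lower. With the intervals widened for an assumed coefficient of variation of 0.2 between cultures, 5 members (12.8%) met this 1.5-fold rule, namely ATM, BARD1, BRCA1, BRCA2 and RAD50, against 5.01% of all measured genes. A stricter size rule asked for a 2-fold difference and an interval beyond 1.5-fold. BRCA2 and BRCA1 met it and no member was lower by it, against 3.02% of all measured genes higher and 0.596% lower.

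**Figure D1:**
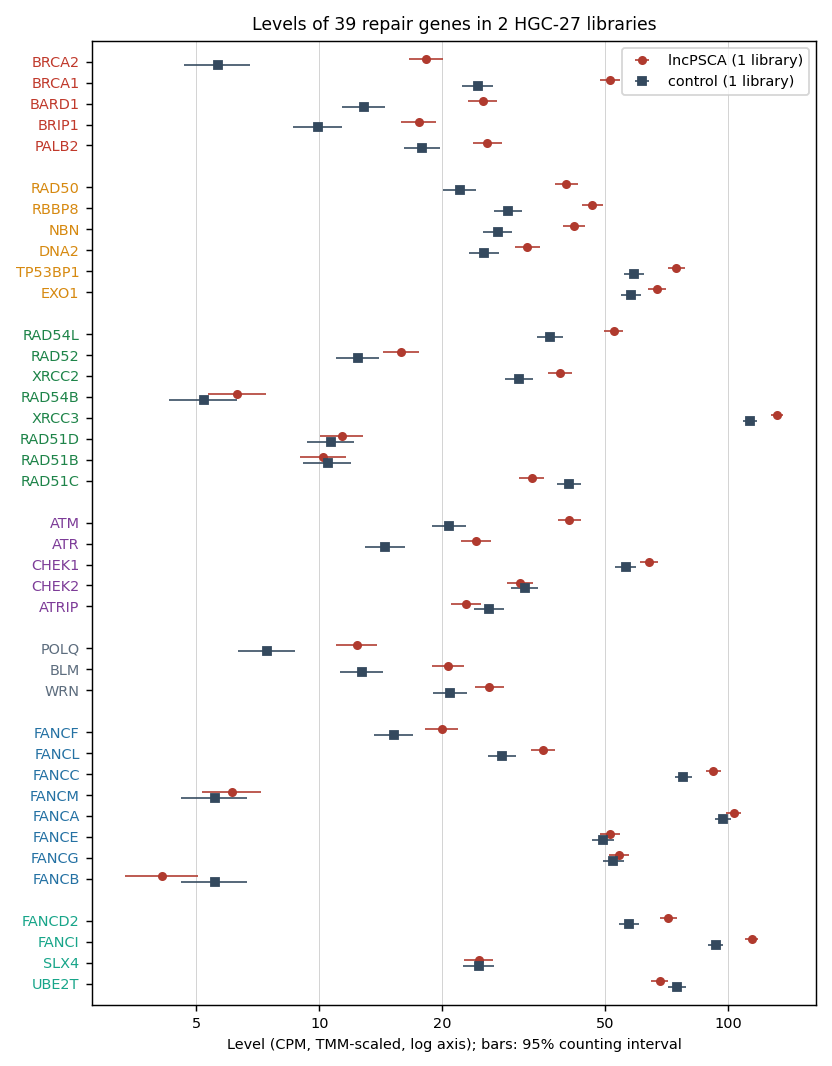
Level of each of the 39 genes in CPM on a log axis, with the lncPSCA library as circles above and the control library as squares below; bars are 95% counting intervals of a single library and genes are grouped and coloured by role. The circles stand to the right of the squares for all of the BRCA1 and BRCA2 group, while for 4 of the 8 genes of the Fanconi core complex the interval of the fold included 1.

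The genes of the BRCA1 and BRCA2 complexes, which act between end trimming and strand pairing, differed most. All 5 were higher in the lncPSCA library, against 48.1% of all measured genes with a log2 ratio above 0. At least 1.5-fold higher were 4 of them, against 10.5% of all measured genes. The 5 genes had a median coding sequence of 3747 bases. Of the other genes between 3000 and 6000 coding bases, 19.3% were at least 1.5-fold higher. The group's summed level was 138 CPM in the lncPSCA library and 70.7 CPM in the control library. BRCA2, a tumour suppressor of hereditary breast and ovarian cancer, had 429 reads and 18.2 CPM in the lncPSCA library, against 119 reads and 5.64 CPM in the control library. Its fold of 3.24 (2.63 to 3.998) was the highest of the 39 genes, and 98.9% of measured genes had a lower ratio. PALB2, which tethers BRCA2 to BRCA1, had 606 reads in the lncPSCA library and 377 in the control library, and its fold of 1.44 (1.27 to 1.64) fell short of 1.5.

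BRCA1, a ubiquitin ligase that promotes end trimming and recruits PALB2, had 1208 reads and 51.4 CPM in the lncPSCA library, against 516 reads and 24.5 CPM in the control library. BARD1, the obligate partner of BRCA1, had 590 reads and 25.1 CPM in the lncPSCA library, against 271 reads and 12.8 CPM in the control library. The folds of the pair were close, at 2.10 (1.89 to 2.33) for BRCA1 and 1.95 (1.69 to 2.26) for BARD1. BRIP1, the helicase FANCJ that binds the BRCT repeats of BRCA1, had 412 reads in the lncPSCA library and 209 in the control library, a fold of 1.77 (1.49 to 2.10).

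The upstream sequences of BRCA2, BRCA1, BARD1 and BRIP1 are shown because these 4 members of the BRCA1 and BRCA2 complexes were at least 1.5-fold higher, beside UBE2T, a member whose level was slightly lower in the lncPSCA library. Each window is the 250 bases before a RefSeq transcription start (GRCh38.p14), written 5′ to 3′ on the strand of the gene. Capitals mark a CCAAT box, a GC box or a CHR (cell cycle genes homology region) match on either strand. The windows are chr13:32315258-32315507, plus strand, for BRCA2; chr17:43125365-43125614, minus strand, for BRCA1 at the downstream of its RefSeq starts; chr2:214809684-214809933, minus strand, for BARD1; chr17:61863529-61863778, minus strand, for BRIP1; and chr1:202341937-202342186, minus strand, for UBE2T.
BRCA2: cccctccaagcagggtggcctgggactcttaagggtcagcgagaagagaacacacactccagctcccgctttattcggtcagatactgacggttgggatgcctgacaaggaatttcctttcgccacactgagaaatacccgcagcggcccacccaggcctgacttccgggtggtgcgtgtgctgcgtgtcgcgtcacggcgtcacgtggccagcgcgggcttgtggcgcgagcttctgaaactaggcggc
BRCA1: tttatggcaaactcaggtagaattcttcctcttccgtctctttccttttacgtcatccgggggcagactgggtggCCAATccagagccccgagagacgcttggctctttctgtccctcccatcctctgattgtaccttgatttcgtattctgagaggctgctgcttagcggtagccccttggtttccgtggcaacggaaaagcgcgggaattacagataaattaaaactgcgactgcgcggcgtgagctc
BARD1: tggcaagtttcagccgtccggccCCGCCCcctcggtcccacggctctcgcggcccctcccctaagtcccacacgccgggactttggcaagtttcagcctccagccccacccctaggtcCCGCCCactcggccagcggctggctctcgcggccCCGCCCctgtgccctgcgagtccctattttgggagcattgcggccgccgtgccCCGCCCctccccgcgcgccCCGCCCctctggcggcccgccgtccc
BRIP1: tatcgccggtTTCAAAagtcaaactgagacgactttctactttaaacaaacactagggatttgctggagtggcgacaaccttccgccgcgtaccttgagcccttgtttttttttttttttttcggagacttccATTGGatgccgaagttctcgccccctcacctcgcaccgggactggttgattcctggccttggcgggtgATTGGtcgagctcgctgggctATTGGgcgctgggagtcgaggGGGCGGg
UBE2T: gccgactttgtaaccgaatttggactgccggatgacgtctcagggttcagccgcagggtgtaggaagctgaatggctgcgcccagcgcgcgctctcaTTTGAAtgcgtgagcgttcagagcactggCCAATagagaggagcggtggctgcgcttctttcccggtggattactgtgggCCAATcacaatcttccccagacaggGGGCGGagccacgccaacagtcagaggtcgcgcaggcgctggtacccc

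The motifs searched were the E2F-type letters TTTCCCGC, TTTGGCGC, TTTCGCGC and TTTGCCGC, the CHR letters TTTGAA, the CCAAT box CCAAT and the GC box GGGCGG. Both strands were read, overlapping matches were allowed, and a gene counted once per motif if any of its starts held it. The sequence table held 34 of the 39 members; DNA2, FANCI, NBN, RAD54B and WRN were not matched. The BARD1 window held 5 GC boxes, the first of them 227 bases before the start, and no CCAAT box, while BRIP1 held 3 CCAAT boxes and the BRCA2 window held none of these letters. GC boxes were present in 24 of 34 members (70.6%), against 63.0% of 15301 protein-coding genes. CCAAT boxes were present in 15 of 34 (44.1%), against 40.7%, CHR letters in 5 (14.7%), against 14.2%, and E2F-type letters in 2 (5.88%), against 4.63%. Among the 10 matched members that were at least 1.5-fold higher, 7 held a GC box, 4 a CCAAT box, 3 the CHR letters and 0 the E2F-type letters; among the other 24 members these counts were 17, 11, 2 and 2. These are matches of letters in a fixed window and not binding sites.

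The 6 genes of break sensing and end trimming were all higher in the lncPSCA library, with intervals wholly above 1. That held for 27.0% of all measured genes. RAD50, the ATPase that holds broken ends together, had 946 reads and 40.2 CPM in the lncPSCA library, against 465 reads and 22.04 CPM in the control library, a fold of 1.83 (1.63 to 2.04). NBN, which joins RAD50 in the break sensor and recruits ATM, had 988 reads in the lncPSCA library and 576 in the control library, a fold of 1.54 (1.39 to 1.71). RBBP8, whose protein CtIP starts the trimming, had 1095 and 612 reads in the lncPSCA and control libraries, a fold of 1.61 (1.45 to 1.78). The long-range nucleases differed less: DNA2 had a fold of 1.28 (1.14 to 1.43) and EXO1 one of 1.16 (1.07 to 1.25). TP53BP1, which protects ends from trimming and so opposes BRCA1, had 74.8 CPM in the lncPSCA library and 58.9 CPM in the control library, a fold of 1.27 (1.18 to 1.37).

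The damage kinases split. ATM, the kinase of double-strand breaks, had 962 reads and 40.9 CPM in the lncPSCA library, against 438 reads and 20.8 CPM in the control library, a fold of 1.97 (1.76 to 2.21). ATR, the kinase of exposed single strands and stalled forks, had 568 reads in the lncPSCA library and 306 in the control library, a fold of 1.67 (1.45 to 1.92). ATRIP, without which ATR is unstable, was slightly lower, with 537 and 550 reads in the lncPSCA and control libraries and a fold of 0.876 (0.777 to 0.989). The effector kinases differed little: CHEK1, the target of ATR, had a fold of 1.14 (1.06 to 1.24), and CHEK2, the target of ATM, one of 0.972 (0.874 to 1.08).

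The RecQ helicases and polymerase theta were higher. BLM, which dissolves crossed recombination intermediates, had 485 reads in the lncPSCA library and 268 in the control library, a fold of 1.62 (1.40 to 1.89). POLQ, the polymerase of an alternative end-joining route that recombination-deficient cells rely on, had 290 reads in the lncPSCA library and 157 in the control library, a fold of 1.66 (1.36 to 2.03). WRN, the helicase-nuclease lost in Werner syndrome, had a fold of 1.25 (1.10 to 1.41). BLM and POLQ were at least 1.5-fold higher, against 10.5% of all measured genes, and WRN was not.

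The genes of the paralog complexes and the helpers of strand exchange stayed closer to equality, and none of the 8 differed by 1.5-fold. For 8 genes that count lies near the shares over all measured genes, 10.5% higher and 5.41% lower. RAD54L, a motor protein of strand invasion, came closest with 1234 reads in the lncPSCA library and 774 in the control library, a fold of 1.43 (1.31 to 1.57). RAD52, which anneals single strands, and XRCC2, a subunit of a paralog complex, had folds of 1.28 (1.09 to 1.502) and 1.26 (1.14 to 1.39). XRCC3 was the most abundant member, with 132 CPM in the lncPSCA library and 113 CPM in the control library, a fold of 1.17 (1.10 to 1.23). RAD51C, the paralog shared by both paralog complexes, was lower, with 778 reads in the lncPSCA library and 861 in the control library, a fold of 0.811 (0.735 to 0.895). The intervals of RAD54B (1.21, 0.937 to 1.56), RAD51D (1.07, 0.889 to 1.28) and RAD51B (0.975, 0.808 to 1.18) included 1.

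The Fanconi core complex, which builds the ubiquitin ligase, differed less. None of its 8 genes differed by 1.5-fold, and their median log2 ratio was 0.11. Of all measured genes, 10.5% were at least 1.5-fold higher and 5.41% lower, so a count of 0 among 8 genes lies near those shares. FANCA, FANCE and FANCG, structural subunits, had folds of 1.06 (0.9996 to 1.13), 1.04 (0.959 to 1.13) and 1.03 (0.952 to 1.12). FANCL, the catalytic ligase subunit, had a fold of 1.26 (1.13 to 1.40), FANCF, an adaptor, 1.31 (1.13 to 1.51), and FANCC, another subunit, 1.18 (1.11 to 1.26). FANCM, the translocase that anchors the complex to DNA, had only 144 reads in the lncPSCA library and 117 in the control library, a fold of 1.10 (0.859 to 1.42). FANCB, an X-linked subunit, had 97 reads in the lncPSCA library and 117 in the control library. Its fold of 0.744 (0.563 to 0.982) was the lowest of the 39 genes, although its interval nearly reached 1.

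The substrates of the core complex moved together by a small amount. FANCD2 had 1678 reads in the lncPSCA library and 1206 in the control library, a fold of 1.25 (1.16 to 1.35), and FANCI had 2687 and 1968 reads in the lncPSCA and control libraries, a fold of 1.23 (1.16 to 1.299). UBE2T, the ubiquitin-conjugating enzyme that works with FANCL, had 1599 reads in the lncPSCA library and 1582 in the control library, a fold of 0.907 (0.846 to 0.973). SLX4, the scaffold of the unhooking nucleases, had 24.5 CPM in the lncPSCA library and 24.6 CPM in the control library, a fold of 0.9997 (0.886 to 1.13).

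**Figure D2:**
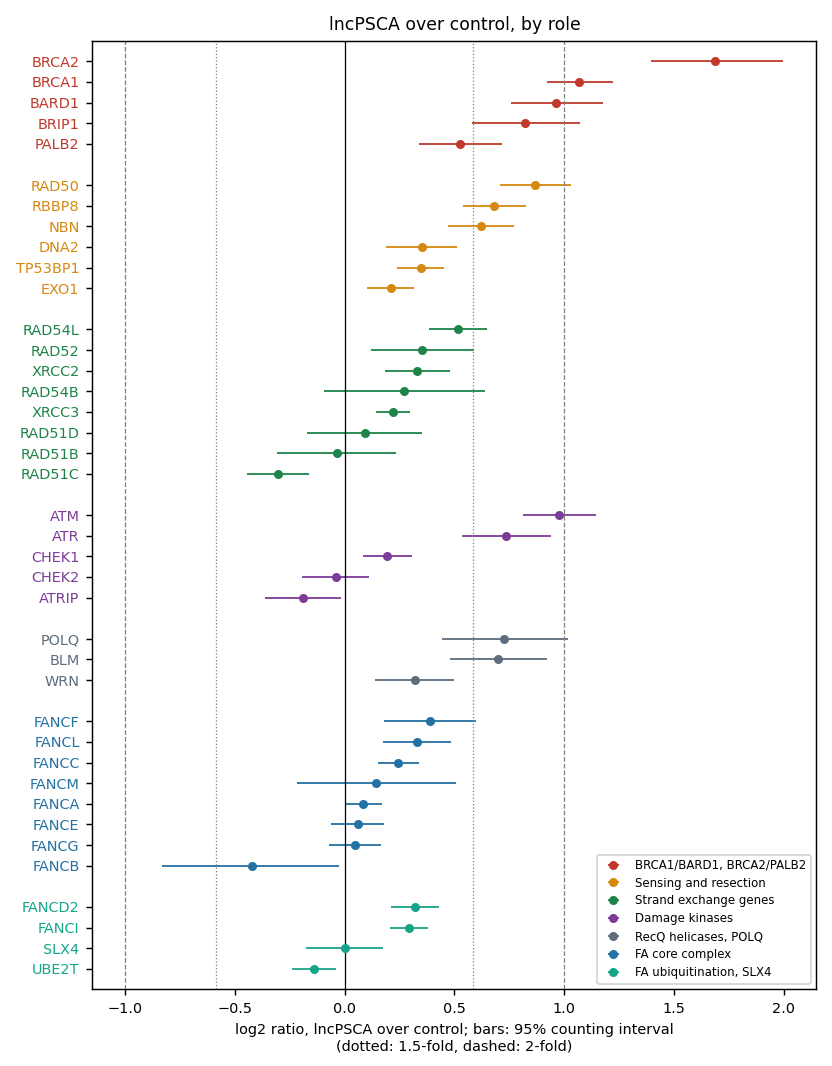
Log2 ratio of lncPSCA over control for each of the 39 genes, grouped by role, with 95% counting intervals; the dotted lines mark 1.5-fold and the dashed lines 2-fold. BRCA2 at 1.69 and BRCA1 at 1.07 lie beyond the 2-fold line, and FANCB at -0.42 is the lowest.

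Per kilobase of longest transcript, which allows genes to be set beside each other, UBE2T was the most abundant member in both libraries, at 45.4 CPM per kilobase in the lncPSCA library and 50.02 in the control library. XRCC3 followed at 36.0 in the lncPSCA library and 30.9 in the control library, while FANCI, FANCL, FANCG, FANCE and FANCC lay between 20.1 and 24.1 in the lncPSCA library. BRCA2 was the lowest member in the control library, at 0.471 CPM per kilobase, and had 1.52 in the lncPSCA library, above FANCM at 0.861, RAD51D at 1.14, POLQ at 1.36 and FANCB at 1.36. RAD51D is understated on this scale because its longest transcript, of 9988 bases, far exceeds its coding sequence of 1044 bases.

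Ratios of reads between partners do not depend on how the libraries are scaled, and they differed from pair to pair. Their intervals cover counting error only. With 1 library per group they cannot show which pairs kept their proportion. BRCA1 had 2.05 reads per BARD1 read in the lncPSCA library and 1.90 in the control library, a ratio of 1.08 (0.897 to 1.29). FANCD2 had 0.624 reads per FANCI read in the lncPSCA library and 0.613 in the control library, a ratio of 1.02 (0.927 to 1.12). BRCA2 had 0.708 reads per PALB2 read in the lncPSCA library, against 0.316 in the control library, a ratio of 2.24 (1.75 to 2.88). ATR had 1.06 reads per ATRIP read in the lncPSCA library, against 0.556 in the control library, a ratio of 1.90 (1.58 to 2.29). ATRIP shares 27.9% of its exon bases with TREX1 and ATR 16.4% with EIF2AK1P1, so both counts are uncertain.

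Of the other pairs, RAD50 to NBN had a ratio of 1.19 (1.02 to 1.38) and FANCL to UBE2T one of 1.39 (1.22 to 1.58). FANCL shares 18.7% of its exon bases with VRK2, so its count is uncertain. RAD51C to XRCC3, subunits of a heterodimer, had a ratio of 0.696 (0.622 to 0.779). CHEK2 to ATM had a ratio of 0.493 (0.421 to 0.577) and CHEK1 to ATR one of 0.686 (0.584 to 0.807). The intervals of RAD51B to RAD51C, XRCC2 to RAD51D and BRIP1 to BRCA1 included 1. The 12 pairs were chosen from known partnerships after the counts had been seen. In the pairs whose ratio was furthest from 1 the coding sequences were of unequal length, with 10254 bases for BRCA2 and 3558 for PALB2, 7932 for ATR and 2373 for ATRIP, and 1758 for CHEK2 and 9168 for ATM. RAD51C and XRCC3 differed in ratio with coding sequences of like length, 1128 and 1038 bases. However, XRCC3 shares 76.7% of its exon bases with KLC1, so its count is uncertain. The GC content of the longest transcript was 42.2% for RAD51C and 63.8% for XRCC3. BRCA1 and BARD1, whose interval included 1, had coding sequences of unequal length, 5652 and 2331 bases. Their longest transcripts were closer in length, at 7270 and 5499 bases. The part of length in these pair ratios was not tested.

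The differences followed the length of the genes' transcripts. Over the 39 members, the Spearman rank correlation of log2 ratio was 0.55 with the longest transcript and 0.46 with the longest coding sequence; over the 12195 measured genes with a coding sequence it was 0.31 and 0.39. The points share the same 2 libraries, and the values are descriptions across genes. Members were also longer than most genes, with a median coding sequence of 2577 bases, against 1446 bases over measured protein-coding genes. The members with the longest coding sequences were BRCA2, ATM, POLQ, ATR and FANCM, all above 6000 bases, and 4 of these 5 were at least 1.5-fold higher.

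Within classes of coding length the members had the higher medians. The classes are wide, and members and other genes were not matched in length inside them. Below 1500 bases, 10 members had a median log2 ratio of 0.21, against -0.15 for 6344 other genes, and 0 members and 5.94% of the others were at least 1.5-fold higher. Between 1500 and 3000 bases the median was 0.23 for 12 members and 0.05 for 3991 others, and 3 members and 11.4% of the others were at least 1.5-fold higher. Between 3000 and 6000 bases it was 0.35 for 12 members and 0.22 for 1469 others, with 4 members and 19.3% of the others at least 1.5-fold higher. Above 6000 bases it was 0.73 for 5 members and 0.42 for 352 others, with 4 members and 37.2% of the others at least 1.5-fold higher.

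**Figure D3:**
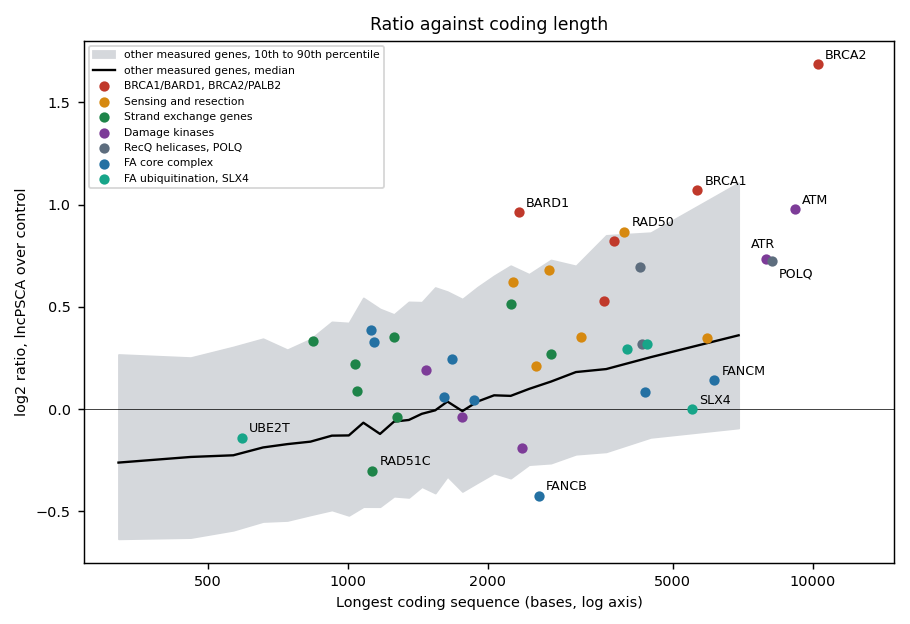
Log2 ratio of lncPSCA over control against the longest coding sequence on a log axis; coloured points are the 39 members by role, the black line is the median of 25 equal groups of the other measured genes and the grey band their 10th to 90th percentile. The line climbs with length. BARD1, BRCA1 and, narrowly, RAD50 lie above the band, FANCB lies below it, and BRCA2 at 1.69 is the highest point. The band ends at 6933 bases, so BRCA2, ATM, POLQ and ATR lie beyond it.

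When the median of the 501 measured genes nearest in coding length was subtracted from each gene, 32 members were above 0, 30 of them the same genes as before centring, and the median log2 ratio of the members was 0.19. FANCM and FANCA moved below 0 and UBE2T and RAD51B above it. BRCA2 alone met the 2-fold rule after this step, at a centred log2 ratio of 1.33. BARD1 at 0.87, BRCA1 at 0.79, RAD50 at 0.65, BRIP1 at 0.63 and ATM at 0.62 remained above 1.5-fold, so that 6 members (15.4%) were at least 1.5-fold higher, against 9.24% of the genes centred in this way. ATR at 0.37, POLQ at 0.37, BLM at 0.46, RBBP8 at 0.57 and NBN at 0.53 no longer reached 1.5-fold. Below the genes of their length lay FANCB at -0.52, ATRIP at -0.29, SLX4 at -0.28 and RAD51C at -0.20. FANCM at -0.20, FANCA at -0.17 and CHEK2 at -0.03 did as well. With centring along the longest transcript instead, 9 members (23.1%) were at least 1.5-fold higher, against 10.2% of the genes so centred. They were 8 of the 11 above and RAD54L, while ATR, POLQ and NBN fell short, and BRCA1 stood at 0.90.

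**Figure D4:**
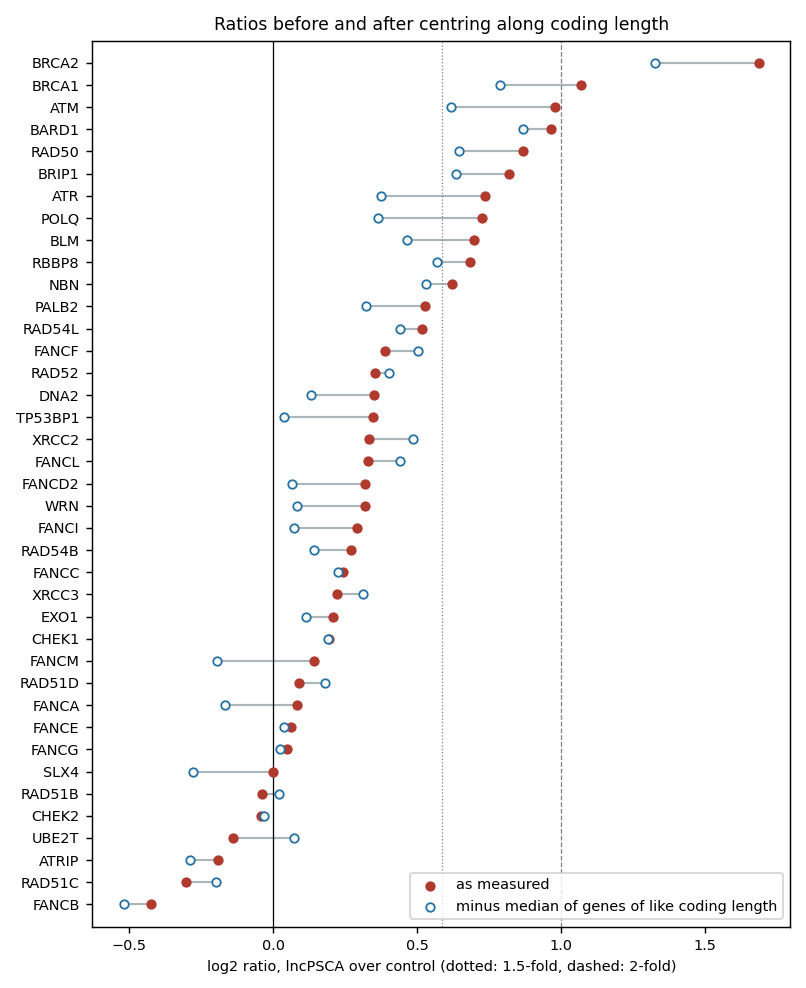
Log2 ratio of lncPSCA over control of each member as measured (filled) and after subtracting the median of the genes of like coding length (open), ordered by the measured ratio. The long genes at the top shift left, and BRCA2 stays beyond the 2-fold line at 1.33.

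Base composition also moved with the ratio. Over the members, the rank correlation of log2 ratio with the GC content of the longest transcript was -0.43, against -0.02 over the measured genes with a coding sequence. BRCA2 had the lowest GC content of the members at 36.3%, but FANCB, with the lowest ratio of the 39 genes, had 36.4%. FANCM, with a fold of 1.10, had 37.7%. XRCC3, with a fold of 1.17 and an uncertain count, had the highest at 63.8%. Subtracting the median of the genes nearest in both transcript length and GC content left BRCA2 at 1.27, BRCA1 at 0.86, BARD1 at 0.80, RBBP8 at 0.75 and BRIP1 at 0.63 above 1.5-fold. These 5 were 12.8% of the members, close to the 9.95% of all genes so centred that were at least 1.5-fold higher. The correlation with GC content was then -0.42. The part of base composition in the result was not otherwise tested.

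The rest of the pathway was taken from a fixed list. Of 41 further Fanconi and recombination genes, 40 were measured and 0 met the 2-fold rule in either direction. The list had a median log2 ratio of 0.10 and a median coding sequence of 1449 bases. In it 2 genes were at least 1.5-fold higher and 0 at least 1.5-fold lower, against 10.5% and 5.41% of all measured genes. The 2 were RMI2 at a log2 ratio of 0.90 and GEN1 at 0.70, named after their values were seen; RMI2 belongs to the complex of BLM, and GEN1 cuts crossed intermediates. RPA1 and RFWD3, the most abundant measured genes of that list, had log2 ratios of -0.19 and 0.10.

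In the list of damage signalling, 2 of 19 genes (10.5%) met the 2-fold rule as higher, against 3.02% of all measured genes. RIF1, the effector of TP53BP1 in end protection, had 755 reads in the lncPSCA library and 272 in the control library, a fold of 2.49 (2.17 to 2.87). ETAA1, an activator of ATR, had 273 reads in the lncPSCA library and 114 in the control library, a fold of 2.15 (1.72 to 2.70). Centred along coding length, the log2 ratio was 0.95 for RIF1 and 0.94 for ETAA1, both below 2-fold. The median of that list was -0.02, and SHLD3, a further partner of TP53BP1 in end protection that was named after its value was seen, had the lowest log2 ratio at -0.75.

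Neighbouring repair routes had medians close to that of all measured genes, of which 10.5% were at least 1.5-fold higher and 5.41% lower. Among non-homologous end joining genes 0 of 9 were 1.5-fold higher or lower (median -0.06), with XRCC6 at a log2 ratio of -0.31 and PRKDC at 0.42. Among mismatch repair genes it was 0 of 6 (median -0.04), with MSH6 at -0.03. Among excision repair genes 0 of 22 were 1.5-fold higher and 2 were 1.5-fold lower (median -0.06), with DDB1 at -0.09 and PARP1 at -0.30. The 2 lower genes were XPA at -0.65 and TDG at -0.63.

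Genes of replication and the cell cycle are given beside these because many repair genes are transcribed in dividing cells. Of 35 replication genes 2 were at least 1.5-fold higher and 0 lower (median 0.06), with MCM7 at a log2 ratio of 0.06 and POLD2 at 0.02. Of 19 S phase markers 3 were at least 1.5-fold higher and 0 lower (median 0.07), and CASP8AP2 met the 2-fold rule at 3.86-fold (3.02 to 5.00). Of 26 genes of G2 and mitosis 4 were at least 1.5-fold higher and 3 lower (median -0.19), and CENPF met the 2-fold rule. Centred along coding length, CASP8AP2 stood at a log2 ratio of 1.63 and CENPF at 1.04. Over all measured genes, 10.5% were at least 1.5-fold higher, 5.41% were 1.5-fold lower and 3.02% met the 2-fold rule as higher. The other genes past 1.5-fold were RFC1 and POLA1 of the replication list, ATAD2 and DTL of the S phase list, and, of the mitotic list, ASPM, CENPE and TOP2A, which were higher, and AURKA, CENPA and BIRC5, which were lower; like XPA and TDG, they were named after their values were seen. Their part in the differences of the 39 genes was not tested.

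**Figure D5:**
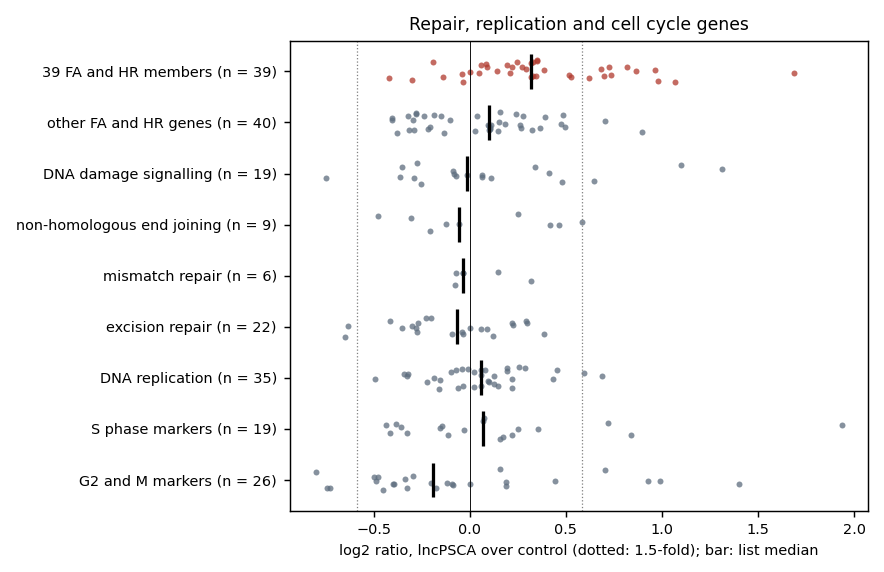
Log2 ratio of lncPSCA over control of each measured gene in 9 lists, with the list median as a black bar and 1.5-fold as dotted lines. The median of the 39 members, 0.32, is the highest of the 9, and the G2 and M markers have the lowest at -0.19. These ratios are not centred along length. Centred along coding length, the member median was 0.19. Those of the other lists then ran from -0.20 (G2 and M markers) to 0.02 (other Fanconi and recombination genes).

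Some member counts may include reads of neighbours or may lack reads from shared exon bases. Whether reads were assigned by strand, and how reads on shared bases were treated, is unknown. In GENCODE release 29, XRCC3 shares 76.7% of its exon bases with KLC1 on the opposite strand, TP53BP1 28.7% with TUBGCP4, RAD54L 25.1% with LRRC41, FANCA 23.6% with ZNF276 and FANCL 18.7% with VRK2. ATR shares 16.4% with the pseudogene EIF2AK1P1, which had 9 reads in the lncPSCA library and 7 in the control library. RAD54B shares 59.1% with FSBP and ATRIP 27.9% with TREX1 on the same strand. Their counts are therefore uncertain. None of the 5 genes of the BRCA1 and BRCA2 group shares as much as 10% of its exon bases. The pseudogene BRCA1P1 had 6 reads in the lncPSCA library and 0 in the control library, and each of the 6 listed CHEK2 pseudogenes had 0 reads in both, so few reads were assigned to these copies.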

How the data were processed

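RNA sequencing was measured in 2 libraries, 1 per group. The authors deposited raw read counts per Ensembl gene, whole numbers with a different total in each column; per the submitters' processing notes, TopHat2 and HTSeq were used with the build hg19. The sources used here do not name the annotation release, strand setting, library kit or treatment of multiply mapped reads. Symbols were matched for 81.9% of the 63677 identifiers, including all 39 members.

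Library sizes were scaled by TMM (edgeR 4.0.16), and CPM computed from the scaled sizes. Log2 ratios used counts plus a pseudocount of 1, which pulls weakly covered genes towards 0; folds are plain CPM ratios with exact (Clopper-Pearson) 95% intervals (scipy 1.17.1). Reads were counted without molecular identifiers and need not be independent, so the intervals cover counting error only. With 1 library per group no test was possible and no p-value is given. The genes named from lists were up to 4 that met the size rule, or the 2 most abundant; 1 of these is not reported here. Lengths, GC content and exon overlaps came from GENCODE release 29 (GRCh38), a different build, matched by identifier; promoter sequences came from RefSeq (GRCh38.p14). The code was tested on simulated data. The members, lists and rules were chosen with earlier results of these data known. Of 20 listed S phase markers, 19 were matched.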

Additional observations from a re-analysis of the deposited data

How the results depend on the processing

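No paired analysis was possible because each group has 1 library. No member changed its direction among those at least 1.5-fold higher, under any alternative run. The count of members meeting the 2-fold rule was 2 as reported, 4 with total counts (BRCA2, BRCA1, ATM and BARD1), and 1 (BRCA2) with centring along longest transcript length, along coding length, along transcript length and GC content, and when cultures were assumed to vary with a coefficient of 0.2. The count at least 1.5-fold higher was 11 as reported, 6 with centring along coding length (15.4%, against 9.24% of all genes so treated), 5 with centring along transcript length and GC content (12.8%, against 9.95%) and 5 with the assumed variation (12.8%, against 5.01%). The median log2 ratio of 0.32 was 0.19 with centring along coding length. The rank correlation with transcript length of 0.55 was 0.30 after centring along transcript length and 0.33 after centring along coding length. DESeq2 1.42.0 size factors, upper-quartile scaling, centring along mean CPM, pseudocounts of 0.5 and 5, and other CPM minimums kept these counts within 1.5 times and the median within the counting interval of the median gene. Without the members that share at least 10% of their exon bases with another gene, a choice made after seeing the data, the median was 0.32 and the counts were 2 by the 2-fold rule and 10 by the 1.5-fold rule.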
